A study of Mus musculus with 6 samples.

Results

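The 41 genes described here encode the machinery that copies DNA and the enzymes that supply its building blocks, from origin recognition to chromatin assembly. They were taken by gene name from a list that was drawn up with earlier results of these data known, and all 41 were found among the 21950 genes listed in both coverage columns. The tissue was ileum, the stretch of small intestine next to the colon. It came from C57BL/6 mice aged 24 weeks, of which 3 were wild type and 3 were TLR4ΔIEC. In TLR4ΔIEC mice Toll-like receptor 4 (Tlr4), the receptor for bacterial lipopolysaccharide, is conditionally deleted in intestinal epithelial cells. No source used here names the Cre driver or the deleted exons. Ribosomal RNA was depleted from total RNA, and 1 barcoded whole-transcriptome library was made per mouse. The deposited table has 1 column of average coverage (reads per base) per genotype, which the labels assign to all 3 mice together.

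Every value below belongs to a pool of 3 mice. The spread between mice is therefore unknown, and no difference was tested. Each genotype also had its own sequencing pool, so that genotype and pool cannot be told apart. Where 2 values are given for a gene or list, the wild type column comes first and the TLR4ΔIEC column second. The 2 columns summed to 699800 and 698473, with medians of 1.57 and 1.70 reads per base. For ratios the columns were put on a common scale of 1000000 units, on which 1 unit was a coverage of 0.683 and 0.716. Log2 ratios are TLR4ΔIEC over wild type, of units plus 1, which understates the differences of weakly covered genes. A gene was called higher or lower when this ratio reached 2-fold. The ileal bile acid binding protein Fabp6 was at 15333 and 13619 units, and the epithelial marker Epcam at 999.8 and 756 units. Tlr4 itself was at 2.90 and 2.24 units, a log2 ratio of -0.27, in a tissue where cells other than epithelium keep the gene.

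Before a cell divides, origins of replication are licensed: the origin recognition complex, Cdc6 and Cdt1 load the ring-shaped MCM helicase onto DNA. In S phase, Cdc45 and the GINS complex turn the ring into an active helicase, primase and polymerases copy both strands around the PCNA clamp, and ribonucleotide reductase and thymidylate synthesis supply deoxynucleotides. In the intestine, dividing cells sit mainly in the crypts, while the enterocytes of the villus have left the cell cycle. Many of these genes carry binding sites for E2F transcription factors, which act at the entry to S phase.

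The promoters of the members are shown first, because E2F sites are the feature that these genes are best known to share. Promoters came from RefSeq (GRCm38, the assembly behind mm10), each running from 250 bases before to 50 after a start, and 34 of the 41 members were in the table, with 39 starts (Mcm4, Gins1, Gins2, Gins4, Prim2, Rfc2 and Pole were not matched). The E2F core was searched on both strands as 4 words that can overlap one another: the word TTCCCGC, the word TTGGCGC, the word TTCGCGC and the word TTGCCGC. At least 1 of them stood in 23 of the 34 members, or 67.6%. The share was 19.3% of 6488 genes that had a promoter in the table and reached 5 units in the mean, and 10.9% of all 27025 genes with a promoter. In 12 members a word lay within the 120 bases before a start. The lines below give those 120 bases for 3 members with words there (Mcm6, Chaf1a and Rrm1) and for 2 members with no word in the whole promoter (Mcm2 and Mcm10), 5′ to 3′ on the gene's strand, with E2F core words in capitals.
Mcm6, chr1:128359706-128359825, minus strand: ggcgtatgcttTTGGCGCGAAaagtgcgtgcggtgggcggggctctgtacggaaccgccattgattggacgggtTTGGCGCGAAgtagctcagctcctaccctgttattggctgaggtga
Chaf1a, chr17:56040296-56040415, plus strand: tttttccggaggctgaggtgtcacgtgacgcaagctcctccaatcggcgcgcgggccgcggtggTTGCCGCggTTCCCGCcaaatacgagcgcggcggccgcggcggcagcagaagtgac
Rrm1, chr7:102441575-102441694, plus strand: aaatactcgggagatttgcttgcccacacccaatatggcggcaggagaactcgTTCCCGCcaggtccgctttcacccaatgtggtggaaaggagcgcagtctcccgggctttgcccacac
Mcm2, chr6:88898781-88898900, minus strand: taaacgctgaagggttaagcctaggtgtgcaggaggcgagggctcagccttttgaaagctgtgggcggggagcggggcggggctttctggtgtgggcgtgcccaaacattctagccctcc
Mcm10, chr2:5012792-5012911, minus strand: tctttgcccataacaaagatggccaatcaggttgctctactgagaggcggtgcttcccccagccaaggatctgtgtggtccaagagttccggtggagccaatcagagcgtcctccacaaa

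In these 120 bases Mcm6 held 4 words, as 2 stretches in which a word on each strand overlap. For 6 other members the lines below give 27 bases around 1 E2F core word, which is in capitals (in Rpa2 and Rrm2 as its reverse complement). Fen1, Rpa2, Prim1 and Rrm2 are among the members with the highest ratios, and Rpa3 and Rfc3 are members with ratios of 0.13 and -0.07. In Rfc3 a second word follows in the same line and is left in lower case.
Fen1, chr19:10203939-10203965, minus strand: caggaggctgTTCGCGCctggcagatc
Rpa2, chr4:132768313-132768339, plus strand: ctgtcccttcGCGGGAAggagtttgtg
Prim1, chr10:128015190-128015216, plus strand: gcctgtcttgTTCCCGCcaattctcgt
Rrm2, chr12:24708009-24708035, plus strand: accaacctcaGCGGCAAcgcccgcccg
Rpa3, chr6:8259154-8259180, minus strand: tctgcccgggTTGGCGCggccgcccgc
Rfc3, chr5:151651201-151651227, minus strand: gtcgcacgctTTCGCGCtcgcgggaaa

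In Rrm2 the word lay 235 bases before the start, and in Prim1 it lay 15 bases before it. For the Fen1 start with the printed word, all 120 bases before it lie in annotated Fen1 exons (GENCODE). Of the 39 promoters, 33 held the first 25 bases of a GENCODE transcript of the gene. Words were thus found in members that differed between the columns and in members that did not: the 23 members with a word had a median log2 ratio of 0.55 (-0.16 to 1.34), and the 11 without had 0.46 (-0.20 to 0.96). All 5 members called higher that were in the promoter table had a word, and so did Pold1 and Rfc3, which were below 0. Of the 11 without a word, 8 were above 0, among them Rfc5 (0.96) and Rpa1 (0.90). Mcm2 (-0.01), Pola2 (-0.06) and Mcm10 (-0.20) were below 0. For comparison, 36 mitosis genes were searched in the same way, of which 30 had a promoter in the table. The E2F core was in 6 of those 30. The CHR, searched as the word TTTGAA or the word TTCGAA, an element known from genes of G2 and mitosis, were in 76.7% of mitosis genes, 17.6% of the replication and nucleotide supply genes and 16.1% of the 6488 genes. The CCAAT box, bound by NF-Y, was in 64.7% of the replication and nucleotide supply genes, 76.7% of mitosis genes and 42.7% of the 6488 genes. The GC box GGGCGG was in 26 of the 34 replication and nucleotide supply genes, 24 of the 30 mitosis genes and 69.7% of the 6488 genes. A word is a match of letters, not a measured binding site.

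**Figure D1:**
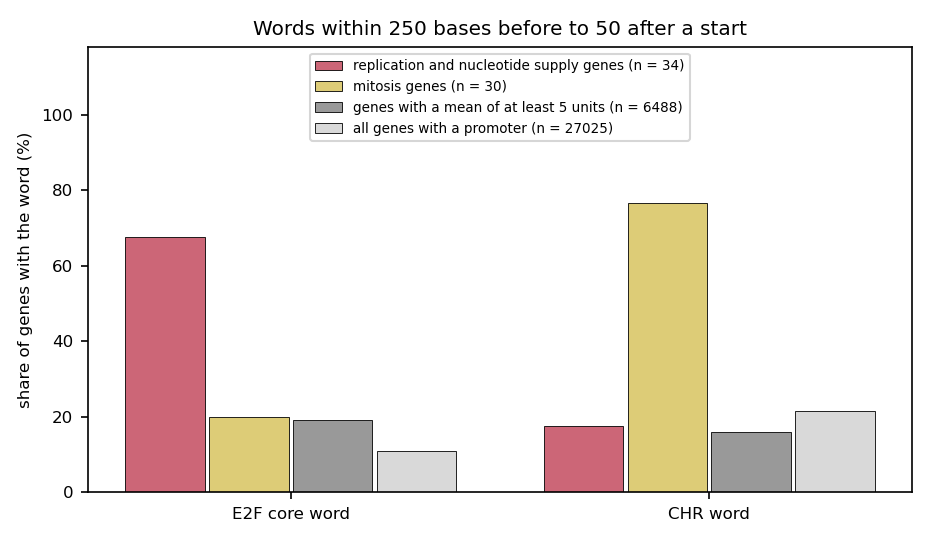
Share of genes (%, y axis) with an E2F core word or a CHR word on either strand in the promoter, for 34 replication and nucleotide supply genes, 30 mitosis genes, the 6488 better covered genes and all 27025 genes with a promoter. The E2F core bar is highest for the replication genes (67.6%) and the CHR bar for the mitosis genes (76.7%).

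The replication and nucleotide supply genes were mostly higher in the TLR4ΔIEC pooled column. Of the 41, 33 had a log2 ratio above 0 and 8 below, against 52.7% above 0 among the 8888 genes that reached 5 units in the mean of both columns and 50% among all 21950. Called higher were 6 (14.6%), namely Rrm2, Mcm4, Fen1, Rpa2, Prim1 and Mcm6, where 1.29% of the 8888 genes and 1.01% of all 21950 were called higher. Called lower were 0 of the 41, where 2.79% of the 8888 genes and 1.8% of all 21950 were. The median log2 ratio of the 41 was 0.51, while that of the 8888 genes was 0.03. At least 1.5-fold higher were 15 of the 41, against 6.57% of the 8888 genes. The members spanned 1.69 to 56.4 units in their mean level, and among the 10657 genes in that range 1.46% were called higher, 2.48% were called lower and 55.5% lay above 0.

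Of the 41 members, 32 reached 5 units in the mean. The other 9 (Orc1, Cdc6, Cdc45, Gins1, Gins3, Pola1, Prim2, Pole and Chaf1a) were weakly covered, all above 0, and none was called. The call rests on the pseudocount: with a pseudocount of 5 units 0 members were called higher (0.731% of the 8888 genes), and with 0.1 units 9 were (1.69%). After a trend with GC content and transcript length was taken out, Mcm6 was not called and Mcm3 was. Each column was also divided by its total without the 50 genes highest in the sum of both columns. The median of the 8894 genes that then reached 5 units was at 0.12, and that of the members at 0.59. Across the 41 members the log2 ratio did not go with the mean level (Pearson's r of 0.00 across genes, a description only). In whole ileum, a difference in the number of dividing cells and a difference in RNA per cell cannot be told apart.

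**Figure D2:**
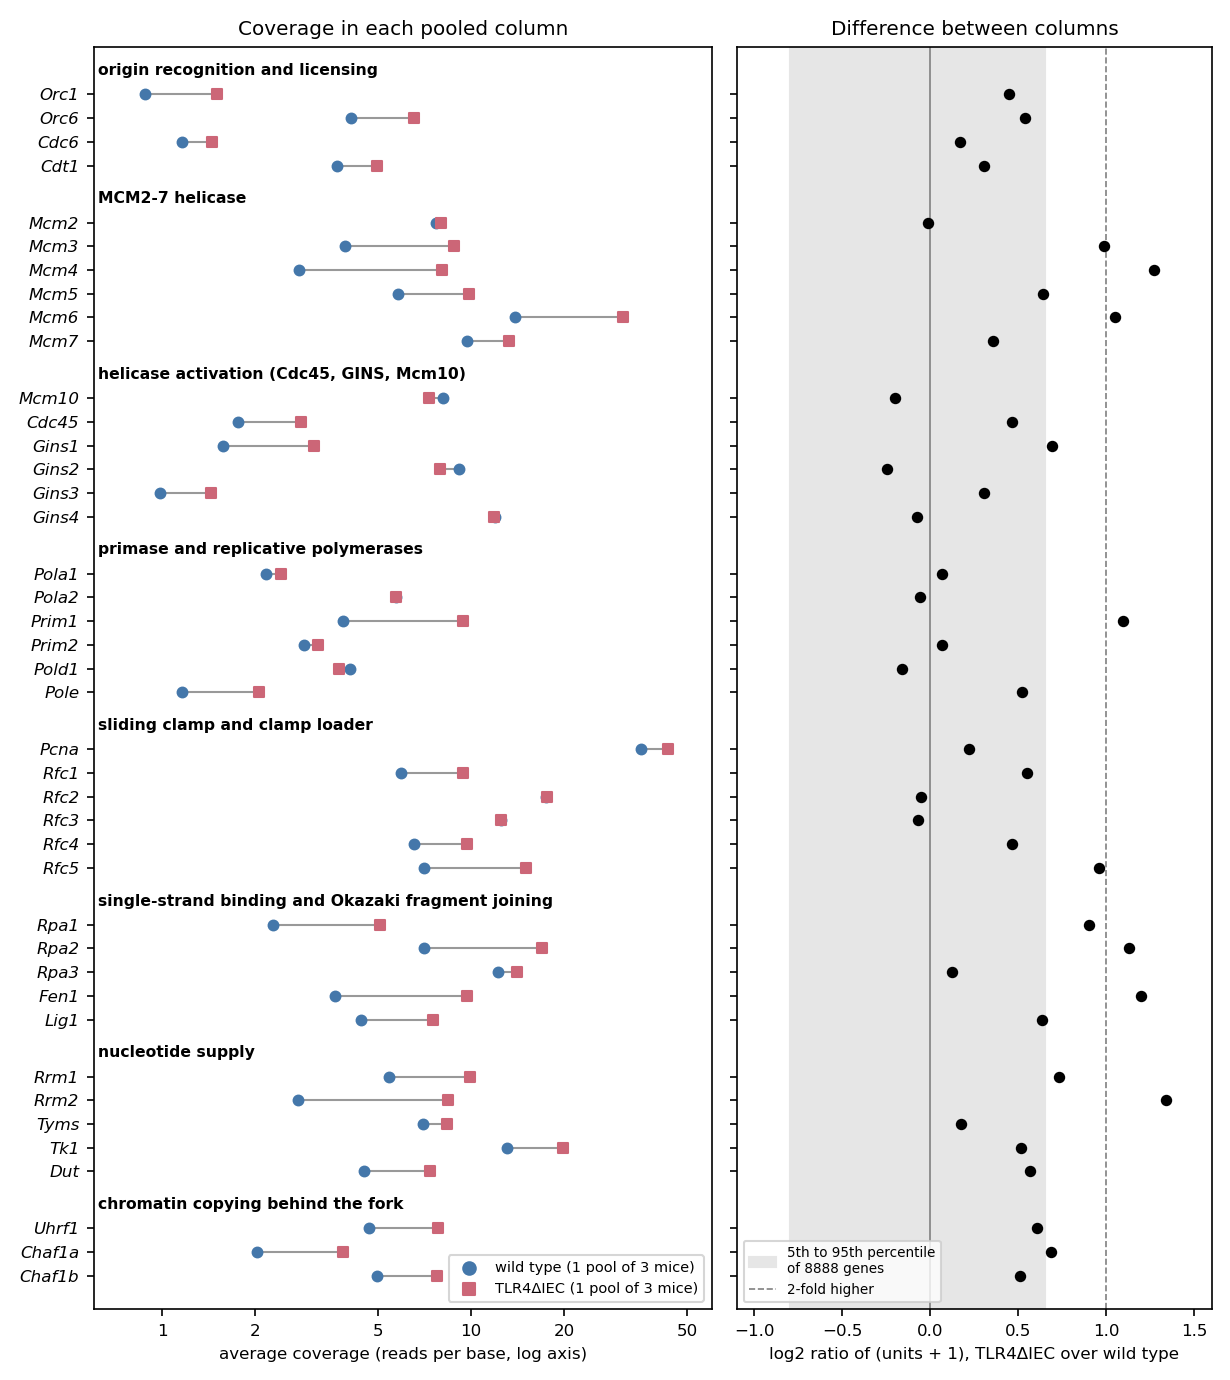
Left, average coverage (reads per base, log axis) of each of the 41 genes in the wild type pool (blue circles) and the TLR4ΔIEC pool (red squares), grouped by role; right, the log2 ratio of units plus 1, with the 5th to 95th percentile of 8888 genes shaded. Most red squares lie to the right of their blue circles, and 6 genes lie beyond the dashed 2-fold line.

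Origin licensing came first in the order of events. Origin recognition complex subunit 1 (Orc1), the subunit that marks origins, was at a coverage of 0.876 and 1.51 reads per base, and Orc6 at 4.07 and 6.52. The loading factor Cdc6 was at 1.16 and 1.45, and its partner Cdt1 at 3.68 and 4.94. All 4 were higher in the TLR4ΔIEC column, with log2 ratios of 0.44, 0.54, 0.17 and 0.31, and 0 of the 4 reached 2-fold.

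The 6 subunits of the MCM helicase differed unequally between the columns, although they form a ring with 1 copy of each. Mcm4 had a coverage of 2.78 and 8.03 reads per base (log2 ratio 1.27), and Mcm6 had 13.9 and 30.9 (1.05). Mcm3 had 3.89 and 8.78, just short of the 2-fold call at 0.99. Mcm5 was at 5.77 and 9.83 (0.64) and Mcm7 at 9.70 and 13.2 (0.36). Mcm2 was nearly equal, at 7.69 and 7.98 (-0.01, but above 0 under either scaling to a column total and with the GC and length trend removed). The log2 ratios of the 6 subunits thus spanned 1.28, and 5 of 6 lay above 0. In coverage, which is per base, Mcm6 was the highest subunit in both columns. The lowest was Mcm4 in wild type, 5.004 times below Mcm6, and Mcm2 in TLR4ΔIEC, 3.87 times below it. Without Mcm6 the subunits lay between 2.78 and 9.70 in wild type and between 7.98 and 13.2 in TLR4ΔIEC.

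For Mcm4 (chromosome 16, 15623897 to 15637400, minus strand) both averages could be written as whole bases of reads over the same length, 3589 bases, with 9965 and 28811 bases of reads. For Mcm6 (chromosome 1, 128331590 to 128359664, minus strand) that length was 2901 bases, with 40307 and 89608 bases of reads. The read length is not given in the sources used here, so these were not turned into read numbers and have no counting interval.

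The factors that activate the helicase were divided. Gins1 was at a coverage of 1.57 and 3.09 (log2 ratio 0.69), Cdc45 at 1.75 and 2.80 (0.46) and Gins3 at 0.981 and 1.44 (0.30). The 3 better covered members of the group were slightly lower: Gins2 was at 9.14 and 7.94 (-0.25), Mcm10, which binds the helicase and polymerase alpha, at 8.11 and 7.29 (-0.20), and Gins4 at 11.9 and 11.8 (-0.08, but above 0 under the scaling that leaves out the 50 highest genes). Gins2 shares 2758 exon bases with Gse1 on the opposite strand. The 4 GINS subunits, which also form a complex with 1 copy of each, spanned a 12.2-fold range of coverage in wild type and an 8.24-fold range in TLR4ΔIEC, with Gins3 lowest and Gins4 highest in both.

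Among primase and the polymerases, Prim1 stood apart. This catalytic subunit of primase (chromosome 10, 128015168 to 128030037, plus strand), which makes the RNA primers, was at a coverage of 3.85 and 9.43, a log2 ratio of 1.096. Its 2 averages could not be written over 1 common length. Its partner Prim2 was at 2.87 and 3.19 (0.07). The polymerase alpha subunits of the same complex were nearly equal, with Pola1 at 2.17 and 2.42 (0.07) and Pola2 at 5.70 and 5.71 (-0.06). The sign of Pola2 changed under either scaling to a column total, that of Prim2 with quantile normalization, and those of Prim2 and Pola1 with the GC and length trend removed. The catalytic subunit of the lagging-strand polymerase, Pold1, was at 4.06 and 3.73 (-0.16, and 0.19 with the GC and length trend removed), and that of the leading-strand polymerase, Pole, at 1.16 and 2.05 (0.52).

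The sliding clamp Pcna, which tethers polymerases to DNA, was the most abundant member in both columns. Its coverage was 35.6 and 43.5, a log2 ratio of 0.22, and pseudogenes with its name (Pcna-ps1 and Pcna-ps2) make its value less certain. The clamp loader, replication factor C, has 5 subunits whose log2 ratios spanned 1.02. Rfc5 was at 7.05 and 15.0 (0.96), Rfc1 at 5.93 and 9.43 (0.55) and Rfc4 at 6.503 and 9.69 (0.47). Rfc2 was at 17.4 and 17.6 and Rfc3 at 12.5 in both, with log2 ratios of -0.05 and -0.07 that turned above 0 under the scaling that leaves out the 50 highest genes (Rfc2 also with the plain column total). The subunits highest in wild type were those that differed least. The wild type value enters each ratio, so this order is not an independent observation. The highest was 2.93 times the lowest in wild type and 1.87 times in TLR4ΔIEC.

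Single-strand binding and the joining of Okazaki fragments held 2 of the 6 called genes. The flap nuclease Fen1 (chromosome 19, 10199132 to 10204169, minus strand), which trims the primers off the lagging strand, was at a coverage of 3.63 and 9.65 (log2 ratio 1.199). Its value rested on 9452 and 25165 bases of reads over 2607 bases. Its exons share 1909 bases with an antisense gene (Gm10143). DNA ligase 1 (Lig1), which seals the fragments, was at 4.39 and 7.52 (0.63). Of the subunits of replication protein A, which coats single-stranded DNA, Rpa2 was called (chromosome 4, 132768332 to 132778752, plus strand; coverage 7.03 and 16.9, log2 ratio 1.13). Rpa1 was at 2.27 and 5.08 (0.90) and Rpa3 at 12.2 and 14.03 (0.13). All 5 members of the group were above 0.

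Nucleotide supply held the member with the highest ratio. Rrm2 (chromosome 12, 24708241 to 24714146, plus strand), the small subunit of ribonucleotide reductase that is made in S phase, was at a coverage of 2.75 and 8.40, a log2 ratio of 1.34, with 5995 and 18303 bases of reads over 2180 bases. The large subunit Rrm1 was at 5.43 and 9.92 (0.73), so that the subunits lay 1.98-fold apart in wild type and 1.18-fold apart in TLR4ΔIEC. Thymidine kinase Tk1 was at 13.1 and 19.8 (0.51), dUTPase (Dut), which keeps uracil out of DNA, at 4.50 and 7.33 (0.57), and thymidylate synthase Tyms at 6.97 and 8.34 (0.17). A pseudogene, Tyms-ps, makes the Tyms value less certain. All 5 were above 0. Rrm2b, the alternative small subunit that serves resting cells, was weakly covered, at 1.39 and 1.67 units (log2 ratio 0.16). The mitochondrial thymidine kinase Tk2 was at a log2 ratio of -0.17.

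All 3 genes that copy chromatin behind the fork were above 0, between 0.51 and 0.69. The large subunit of chromatin assembly factor 1, Chaf1a, was at a coverage of 2.02 and 3.84 (log2 ratio 0.69), and Chaf1b at 4.97 and 7.73 (0.51). Uhrf1, which guides DNA methylation to new strands, was at 4.67 and 7.83 (0.61). Chaf1a shares 4648 exon bases with Ubxn6 on the opposite strand. In all, 13 members share exon bases with a gene on the opposite strand, and whether counting used strand is not given in the sources used here.

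**Figure D3:**
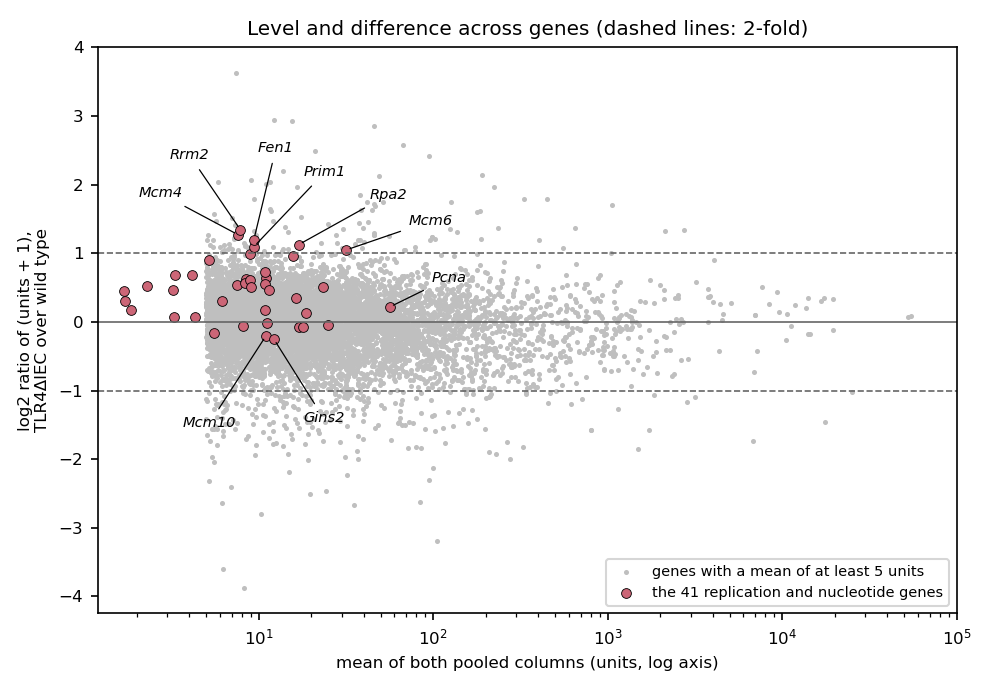
Log2 ratio of units plus 1 (y axis) against the mean of both pooled columns (units, log axis) for 8888 genes (grey) and the 41 replication and nucleotide supply genes (red), with 2-fold marked by dashed lines. The red points lie mostly above 0 over a range of 1.69 to 56.4 units, and 6 lie above the upper dashed line.

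Other genes of the pathway were described from lists outside the 41. Of 33 other replication factors, 28 were above 0, 2 were called higher and 0 lower, with a median log2 ratio of 0.32. The called genes were Rnaseh2b (1.14), a subunit of the nuclease that removes ribonucleotides from DNA, and the weakly covered kinase Cdc7 (1.18), which fires origins. Top2a was at 0.63 and Top1 at 0.60. Both small subunits Pold4 (-0.76) and Rnaseh2c (-0.60) were below 0. Of 12 other chromatin copying genes, 11 were above 0 and 0 were called (median 0.51), with the histone chaperone Asf1b at 0.81 and the maintenance methyltransferase Dnmt1 at 0.35. Of 30 other genes of nucleotide synthesis and salvage, 21 were above 0 and 0 were called (median 0.25). The highest in that list were the thymidylate kinase Dtymk (0.86) and the purine synthesis enzymes Atic (0.78) and Gart (0.69), and the adenine salvage enzyme Aprt was the lowest (-0.44).

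G1/S control genes were more evenly divided, with 19 of 29 above 0 and a median of 0.19. Cyclin D1 (Ccnd1), which drives entry into the cycle, was called higher, at 26.01 and 65.5 units (1.2997). Cyclin D2 (Ccnd2) was at 0.91, cyclin A2 (Ccna2) at 0.85 and Ccnd3 at -0.52. The only gene of the list called lower was the weakly covered inhibitor Cdkn1c (-1.002). The repressor E2f8 was at 0.79 and the activators E2f1 at 0.46, E2f2 at 0.23 and E2f3 at 0.19.

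Mitosis genes, the part of the cell cycle that follows, were above 0 in 36 of 36 cases, with a median of 0.48 and 0 called. Their ratios ran from 0.14 to 0.99, a narrower range than the -0.25 to 1.34 of the replication and nucleotide supply genes. Cdca3 was at 0.99, Prc1 at 0.93, Cdk1 at 0.85 and Racgap1 at 0.81, while Mki67, the protein used to stain dividing cells, was at 0.14. Summed over the list, mitosis genes were at 335 and 484 units, and the replication and nucleotide supply genes at 389 and 542. The difference between both sets was not tested. Damage response and repair genes were above 0 in 23 of 30 cases (median 0.33, and 0.31 over the 12 that reached 5 units in the mean). Only Trp53 (-0.07) and the p53 targets Bax (-0.88) and Gadd45a (-0.69) reached 20 units. All of these were below 0, and their median of -0.69 is the Gadd45a value.

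**Figure D4:**
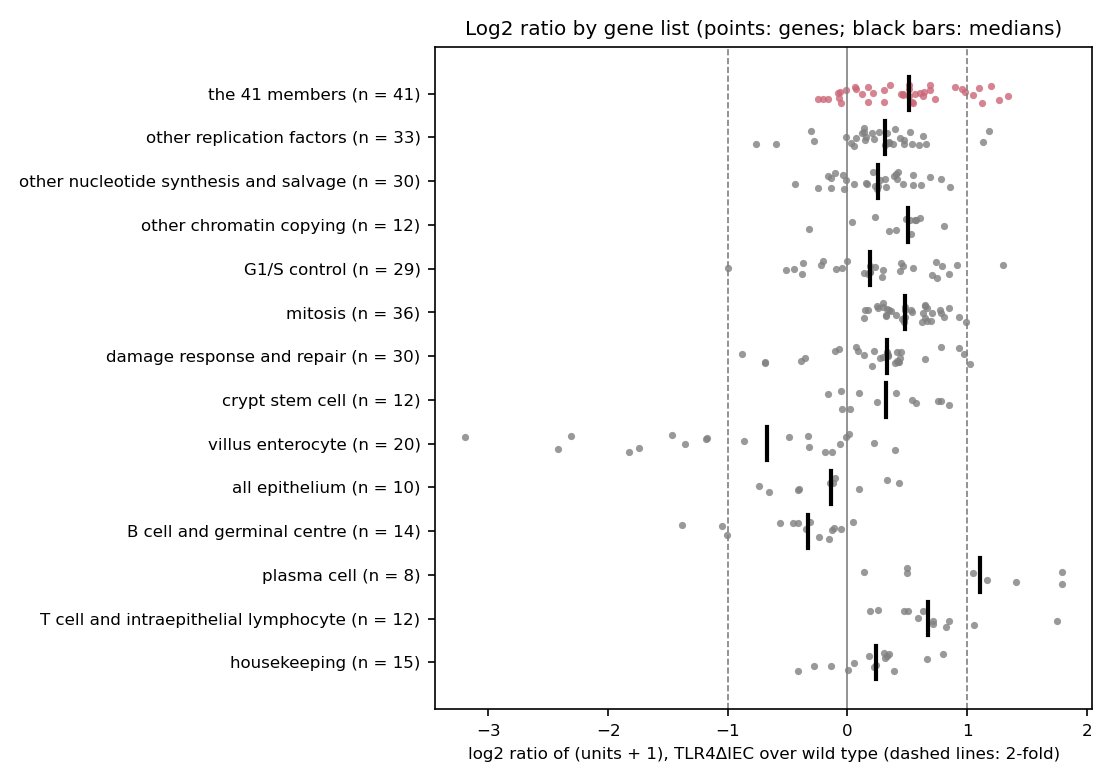
Log2 ratio of units plus 1 (x axis) of every measured gene in the 41 replication and nucleotide supply genes and 13 other lists, with black bars at the medians. The medians of the 41 genes (0.51), other chromatin copying genes (0.51) and mitosis genes (0.48) lie close together, and that of villus enterocyte genes lies below 0 (-0.68).

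Markers of other cell types also differed between the columns, some lists upward and some downward. Their part in the differences of the replication and nucleotide supply genes was not tested. Villus enterocyte markers were below 0 in 17 of 20 cases, with 9 called lower, a median of -0.68 and a summed level of 20629 and 9399 units. The apolipoprotein Apoa1 alone held 10533 and 3154 units of that sum. Crypt stem cell markers were above 0 in 9 of 12 cases (median 0.32, summed level 259 and 394 units). Of these, Olfm4 was at 133 and 224 units, and the defining receptor Lgr5 was at 0.02. Epithelial markers as a whole were at 5804 and 5264 units (3 of 10 above 0, median -0.13, and 0.05 with the GC and length trend removed).

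Lymphocytes also divide in the gut, so their markers were set beside the replication genes. B cell and germinal centre markers were below 0 in 13 of 14 cases, with 3 called lower, a median of -0.33 and a summed level of 80.3 and 67.7 units. Only Cd79a (-0.06) and Cd79b (0.05) of this list reached 5 units in the mean, so its direction rests on weakly covered genes. Its median was -0.12 with a pseudocount of 5 and -0.06 over those whose 2 averages share a length. T cell and intraepithelial lymphocyte markers were above 0 in 12 of 12 cases, with 2 called higher, a median of 0.67 and a summed level of 117 and 299 units, of which the granzyme Gzma held 57.6 and 196. Plasma cell markers were above 0 in 8 of 8 cases with 5 called higher (median 1.11, 423 and 1037 units), and the immunoglobulin joining chain Igj held 202 and 702 of those units. Macrophage markers were above 0 in 8 of the 9 measured, with 1 (Lyz2) called higher, a median of 0.49 and a summed level of 917 and 1702 units, of which Lyz2 held 690.1 and 1389. Red blood cell genes were above 0 in 7 of 8 cases, with 6 called higher, a median of 1.14 and a summed level of 259 and 594 units. Those 6 are globin genes with near-identical copies, whose values are not independent of each other. Adipocyte genes were below 0 in 7 of 7 cases, with 4 called lower, a median of -1.26 and a summed level of 66.1 and 21.4 units. Smooth muscle genes were above 0 in 7 of 8 cases, with 0 called and a median of 0.11. The medians of the plasma, T cell, red blood cell and adipocyte lists thus lay farther from 0 than the 0.51 of the replication and nucleotide supply genes. The part of blood, fat and immune cells in the values of those genes was not tested.

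Housekeeping genes were above 0 in 12 of 15 cases, with 0 called and a median of 0.24. Immediate early genes, which respond to tissue handling, were below 0 in 10 of 10 cases, with 3 called lower (median -0.78).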

How the data were processed

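The authors deposited 1 file per genotype with the average coverage, a signal per RefSeq entry per the file headers; no scaling to library size is stated or was seen in the values. Per the labels, Ion Torrent libraries were strand-specific. The submitters' processing notes name TopHat2 2.0.10, Bowtie2 2.1.0 and mm10 without roles; the tool that made the coverage is not given in the sources used here.

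Both columns listed 22001 entries and 21950 symbols; of repeated symbols, the entry highest in the mean was used. The 723 and 686 entries listed in 1 column only were left out. Columns were scaled by the median of ratios (factor 1.05) to a mean total of 1000000 units, with a pseudocount of 1 and, for background, a filter at a mean of 5 units (8888 genes). With 1 pooled column a group, no test was run. For each average, the smallest whole number that makes coverage times that number whole was recovered. The length behind both averages was taken as the least common multiple of these 2 numbers. For genes with annotated exons it was accepted up to 1.1 times their joint exon length. It can be a divisor of the true length, so read bases may be too low. Such a common length was found for 24 of the 41 members. For the other 17 no common length was found. Exon overlaps and coordinates are from GENCODE vM21 (mm10). The scaling and the log2 ratios were tested on simulated data, with known differences set only in genes of at least 20 units. The other steps were not simulated. Named were all members, Tlr4, and genes with the largest ratios of each other list; further list members and the ileal markers were named after their values were seen. The members and lists were chosen with earlier results of these data known. Alternatives were 4 other scalings, 2 pseudocounts, 3 filters, the mean over entries, genes with the same length, and removal of the trend with GC content and length. Python 3.11.15, numpy 2.4.6 and pandas 2.3.3 were used. Some list members are not reported here.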

Additional observations from a re-analysis of the deposited data

How the results depend on the processing

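No paired analysis was possible because each genotype has only 1 pooled column, and the labels number the mice differently in the 2 groups. The median log2 ratio of the 41 members stayed above 0 under all 13 alternatives. It was 0.57 with plain column totals, 0.59 with totals that leave out the 50 highest genes, 0.52 with the upper quartile, 0.49 with quantile normalization, 0.59 and 0.35 with pseudocounts of 0.1 and 5, 0.36 over the 4 members of at least 20 units (3 above 0, 1 called higher), 0.52 over the 32 of at least 5 units (an alternative added after seeing the data), 0.41 over the 24 with the same length behind both averages (18 above 0) and 0.48 with the GC and length trend removed. The number called higher was 0 with a pseudocount of 5 and 8 under both scalings to a total. Of all genes kept, 0.731% were called higher with that pseudocount. Under the plain totals and those without the 50 highest genes, 1.63% and 1.74% were called higher, and 58.8% and 62.1% lay above 0. At 20 units 1.58% of 3682 genes were called higher and 47.0% lay above 0. Of 6885 genes with the same length, 51.6% lay above 0. Of the 33 members above 0, 31 were so under every alternative that held them, and Prim2 and Pola1 were not. Over all genes, 363 were called either way (115 higher, 248 lower). A pseudocount of 5 gave 211 (65 and 146). Filters at 1 and 20 units gave 586 (206 and 380) and 188 (58 and 130), and no filter gave 617 (222 and 395). Among called genes 31.7% were higher, and 45.2% with totals that leave out the 50 highest genes. Weak coverage limits 9 members, whose ratios the pseudocount shrinks most.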

Other observations

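Several members share a promoter region with a gene that starts on the opposite strand within 1000 bases, and 10 such neighbours were measured. The neighbours had a median log2 ratio of -0.17, with 4 above 0 and 6 below and none called either way, while their 10 members had a median of 0.53. In 9 of the 10 cases the member had the higher ratio. Mcm4 (1.27) stands beside Prkdc, the catalytic subunit of DNA-dependent protein kinase, with starts 466 bases apart. Prkdc was at a coverage of 1.46 (wild type) and 1.91 (TLR4ΔIEC), a log2 ratio of 0.22. Fen1 (1.199) stands beside Tmem258, with starts 155 bases apart, at a coverage of 59.8 and 54.0 (-0.21). Pole (0.52) stands beside the peroxisomal gene Pxmp2 (-0.32), Gins1 (0.69) beside Abhd12 (-0.21), Mcm7 (0.36) beside Ap4m1 (-0.23) and Tk1 (0.51) beside Afmid (-0.18). The exception was Orc1 (0.44), whose neighbour, the splicing factor Prpf38a, was at 8.02 and 15.4 (0.82). Orc6 (0.54) and Vps35 (0.45), which start 170 bases apart, had similar ratios. The neighbour of Prim2 (0.07), 1700001G17Rik (-0.15), had almost no coverage, at 0.13 units in the mean of both columns. Smyd4 (0.56), beside Rpa1 (0.90), was weakly covered at 2.36 units, as were Prkdc (2.40 units) and Afmid (4.37 units). The median of the neighbours lay between the ratios of Afmid and 1700001G17Rik, so it rests on weakly covered genes. Tmem258, Ap4m1, Vps35 and Afmid share exon bases with their members, and the neighbours were not tested against other genes.

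By strand, 17 of 18 members on the plus strand and 16 of 23 on the minus strand were above 0 (medians 0.59 and 0.22). Among the 8888 genes with at least 5 units in the mean the medians were 0.03 on the plus strand and 0.02 on the minus strand. This difference between members was seen after the values and was not tested.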
